A study of Homo sapiens with 15 samples.

Results

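The mitochondrial ribosomal protein genes were taken as the rows of the count table whose symbol begins with MRPL or MRPS followed by a number, with an optional letter A, B or C. The rule found 76 genes among 28518 symbols. All 76 passed the filter on low counts and were tested among 14971 genes. They were followed in HaCaT cells, an immortalised line of human skin keratinocytes, whose CARD14 gene had been edited. CARD14 is a scaffold protein that acts with the protease MALT1 in keratinocyte signalling, and mepazine is a phenothiazine that inhibits MALT1.

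There were 5 groups of 3 libraries, and letters a to c tell the libraries of a group apart. WT cells were labelled wild type at both CARD14 alleles and received vehicle, which was DMSO. R820W cells carried the R820W allele of CARD14 on both copies and received vehicle. Cells labelled KO stood for a CARD14 knockout and received vehicle. The other groups were WT cells and R820W cells given 10 µM mepazine, and every treatment lasted 24 h. The labels do not say how many edited clones stood for a genotype. A clone's own traits and its genotype therefore cannot be told apart.

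Mitochondria carry their own ribosome, the mitoribosome, which translates the few proteins encoded by mitochondrial DNA, all of them subunits of the respiratory chain or ATP synthase. Its RNAs are mitochondrial transcripts, but every one of its proteins is encoded in the nucleus, made in the cytosol and imported. The proteins fall into those with a counterpart in the bacterial ribosome and those found only in mitochondria. MYC and the factors NRF1, GABP and YY1 are known regulators of nuclear genes for mitochondrial proteins.

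The 76 genes included 49 of the large subunit, 31 with a bacterial counterpart and 18 specific to mitochondria. A further 26 belonged to the small subunit, 16 with a bacterial counterpart and 10 specific to mitochondria. Symbols can mislead here: MRPS18A and MRPS30 encode proteins of the large subunit in spite of the S in their names and were counted there. MRPS36 fitted the naming rule, but its product is now placed in the 2-oxoglutarate dehydrogenase complex, so it was counted on its own. In GENCODE 29 on GRCh38, the 76 genes lay on 21 chromosomes.

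Libraries held 20630099 to 26974363 counts, and a single member had between 338 and 7930 counts in any library. The nuclear genes of the mitoribosome were thus well above the floor of 3 counts, which corresponded to 0.111 to 0.145 CPM, counts scaled to equal library sizes. CARD14 itself had 40 to 45 counts in the libraries labelled KO and 24 to 43 in WT vehicle, so its level did not separate them. The labels do not give the edited site, and a count cannot show whether a transcript still encodes the protein. Keratinocyte markers were abundant in every library, with KRT5 at 1239.7 to 2139 CPM of all counts. The 5 keratinocyte markers nevertheless summed to 3254 to 3457 CPM in WT vehicle and 2257 to 2503 CPM in R820W vehicle, and to 2864 to 3295 CPM in WT mepazine and 2466 to 2668 CPM in R820W mepazine.

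Markers of other cell types also differed in level between the groups. The 5 fibroblast markers summed to 2.42 to 2.51 CPM in WT vehicle, 5.35 to 11.1 CPM in R820W vehicle, 3.44 to 5.16 CPM in WT mepazine and 24.3 to 34.2 CPM in R820W mepazine. COL1A1, DCN and LUM made up this signal, whereas COL1A2 and COL3A1 stayed at or below 0.112 CPM. The 4 endothelial markers summed to 4.28 to 6.81 CPM in WT vehicle and 7.73 to 10.5 CPM in R820W vehicle. With mepazine they summed to 10.1 to 13.4 CPM in WT and 23.2 to 37.0 CPM in R820W. CDH5 was the most abundant of them, and TEK stayed at or below 0.0462 CPM. The 4 leukocyte markers summed to at most 0.536 CPM and the 4 melanocyte markers to at most 2.78 CPM, with TYR and DCT at 0. The part of these markers in the results that follow was not tested.

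The summed mRNA of the 76 genes was lower in R820W cells, lower with mepazine, and lowest where both met. In WT vehicle it stood at 5203, 5045 and 5065 CPM, relative to library sizes scaled by the trimmed mean of M-values (TMM). The libraries labelled KO were at 5207, 5300.4 and 5246 CPM. R820W vehicle was lower, at 4809.8, 4708 and 4647 CPM. WT mepazine held 4541, 4556 and 4469.7 CPM. R820W mepazine was the lowest group, at 3641, 3883 and 3875 CPM.

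No value of R820W vehicle, WT mepazine or R820W mepazine overlapped the WT vehicle values, all lying below them, and the libraries labelled KO all lay above them. The group means were 5104 ± 86.1 CPM in WT vehicle (SD, n = 3), 5251 ± 46.8 in the libraries labelled KO, 4722 ± 82.2 in R820W vehicle, 4522 ± 46.2 in WT mepazine and 3799.9 ± 137 in R820W mepazine. Relative to WT vehicle this was 103% in KO, 92.5% in R820W vehicle, 88.6% in WT mepazine and 74.4% in R820W mepazine. R820W mepazine stood at 80.5% of its own vehicle, and at 82.2% without library a, its lowest. As a share of all counts, before any TMM scaling, the members took 0.499% in WT vehicle, 0.472% in R820W vehicle, 0.455% in WT mepazine and 0.398% in R820W mepazine. These are bulk libraries, so fewer cells with high levels and less of this mRNA per cell cannot be told apart, and a share says nothing of the amount of RNA per cell.

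**Figure D1:**
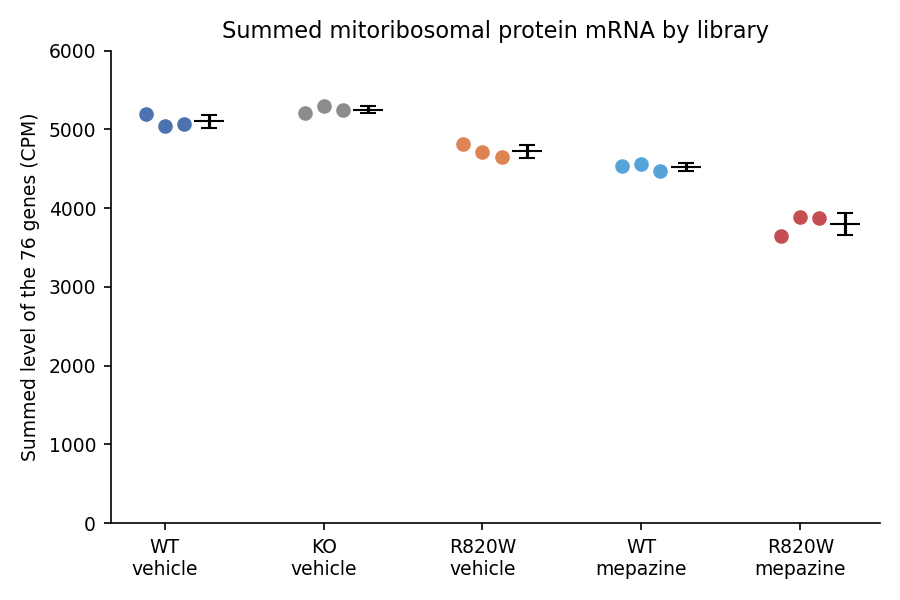
Summed level of the 76 genes in CPM (y axis, from 0) in each library (points, letters a to c from left to right) of the 5 groups; the horizontal bar and whiskers give the mean ± SD of 3 libraries. WT vehicle averaged 5104 CPM and R820W mepazine 3799.9 CPM, and the WT mepazine and R820W mepazine libraries lie apart.

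The first comparison asks whether the R820W allele alone goes with a shift in these genes. In R820W against WT under vehicle, 20 of the 76 members were called lower and 0 higher, with an adjusted p under 0.05 from edgeR's quasi-likelihood test (Benjamini-Hochberg over the 14971 genes). Among all genes tested, 8.61% were called lower and 10.6% higher. The median log2 fold change of the members was -0.11, beside 0.00093 over all genes. Of the 76 point estimates 72 were negative, beside 49.7% over all genes. The 20 called genes were 12 of 49 in the large subunit and 8 of 26 in the small subunit. Of the large-subunit calls, 10 were among the 31 genes with a bacterial counterpart and 2 among the 18 specific to mitochondria, and of the small-subunit calls 6 of 16 and 2 of 10.

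MRPS21, a small-subunit protein with a bacterial counterpart, had the lowest fold change of the 76 in this comparison. It stood at 33.5, 34.2 and 34.1 CPM in WT vehicle and at 22.7, 23.9 and 22.2 CPM in R820W vehicle. The groups were well apart, and the libraries labelled KO, at 32.4, 33.6 and 34.5 CPM, overlapped WT. Its log2 fold change in R820W was -0.57 ± 0.061 (SE; edgeR adjusted p = 6.16e-08). MRPS21 has 8 named pseudogenes in the annotation, more than any other of the 76, and reads shared with them cannot be placed from counts.

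Next in order were much smaller differences. MRPS6, also of the small subunit, went from 48.3 ± 1.00 to 40.5 ± 1.78 CPM (log2 fold change -0.25 ± 0.052, edgeR adjusted p = 0.000796). MRPL36, one of the smallest proteins of the large subunit, went from 41.9 ± 0.737 to 35.4 ± 2.40 CPM (-0.24 ± 0.064, edgeR adjusted p = 0.00702). MRPS23, found only in mitochondria, changed by -0.23 ± 0.057 on the log2 scale. The large-subunit genes MRPL15 and MRPL34 changed by -0.21 and -0.20. The groups did not overlap for these 5 genes, which the rule for naming them required.

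Among genes described for their role, MRPL12, the flexible stalk protein that recruits elongation factors, fell by 0.18 ± 0.047 on the log2 scale in R820W (edgeR adjusted p = 0.00663). MRPL11, at the base of that stalk, and MRPL4, at the peptide exit tunnel, fell by 0.16 and 0.17. MRPS12, a protein of the decoding centre, had -0.14 ± 0.061 and was not called (edgeR adjusted p = 0.121). The count of 20 depended on single libraries: it was 9 without WT vehicle a, 12 without R820W vehicle b and 13 without R820W vehicle c. Over all genes, 1289 were called lower with all libraries, and 891, 1071 and 877 in those fits. MRPL3 was called here (adjusted p = 0.0378 by edgeR) but in none of the 6 fits that left out a library, where its highest adjusted p was 0.125. Among the role genes the calls of MRPL11 and MRPL12 were lost without WT vehicle a and without R820W vehicle b, and that of MRPL4 without R820W vehicle a and without WT vehicle c. MRPL34 lost its call without WT vehicle a, R820W vehicle b or WT vehicle c. The called members with the smallest falls besides these were MRPS17 (-0.17), MRPL17 (-0.16) and MRPL52 (-0.14), whose calls were lost in 5, 4 and 6 of the 6 fits.

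In the libraries labelled KO against WT, both with vehicle, 0 of 76 members were called in either direction by edgeR, and DESeq2 also called 0. At an unadjusted p under 0.05 edgeR gave 4 of 76 members, all higher. Over all 14971 genes that threshold gave 652 higher and 489 lower. Few genes were called at all in this comparison, 0.0868% lower and 0.287% higher. The median log2 fold change of the members was 0.05, with a range of -0.05 to 0.16. Of the 76 estimates 63 were positive, beside 7699 of the 14971 over all genes. The 95% intervals of the 76 differences, on 10 residual degrees of freedom, ran from -0.25 for MRPS33 at the lowest to 0.40 for MRPL54 at the highest. MRPL36 was at 47.5, 47.0 and 45.7 CPM in the libraries labelled KO and 42.3, 41.0 and 42.3 CPM in WT. The values were apart, yet it was not called (0.16 ± 0.063, edgeR adjusted p = 0.514). For MRPS21, called lower in R820W, the KO difference was -0.02 with an interval of -0.15 to 0.11. Whether the R820W and KO effects differ was not tested.

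**Figure D2:**
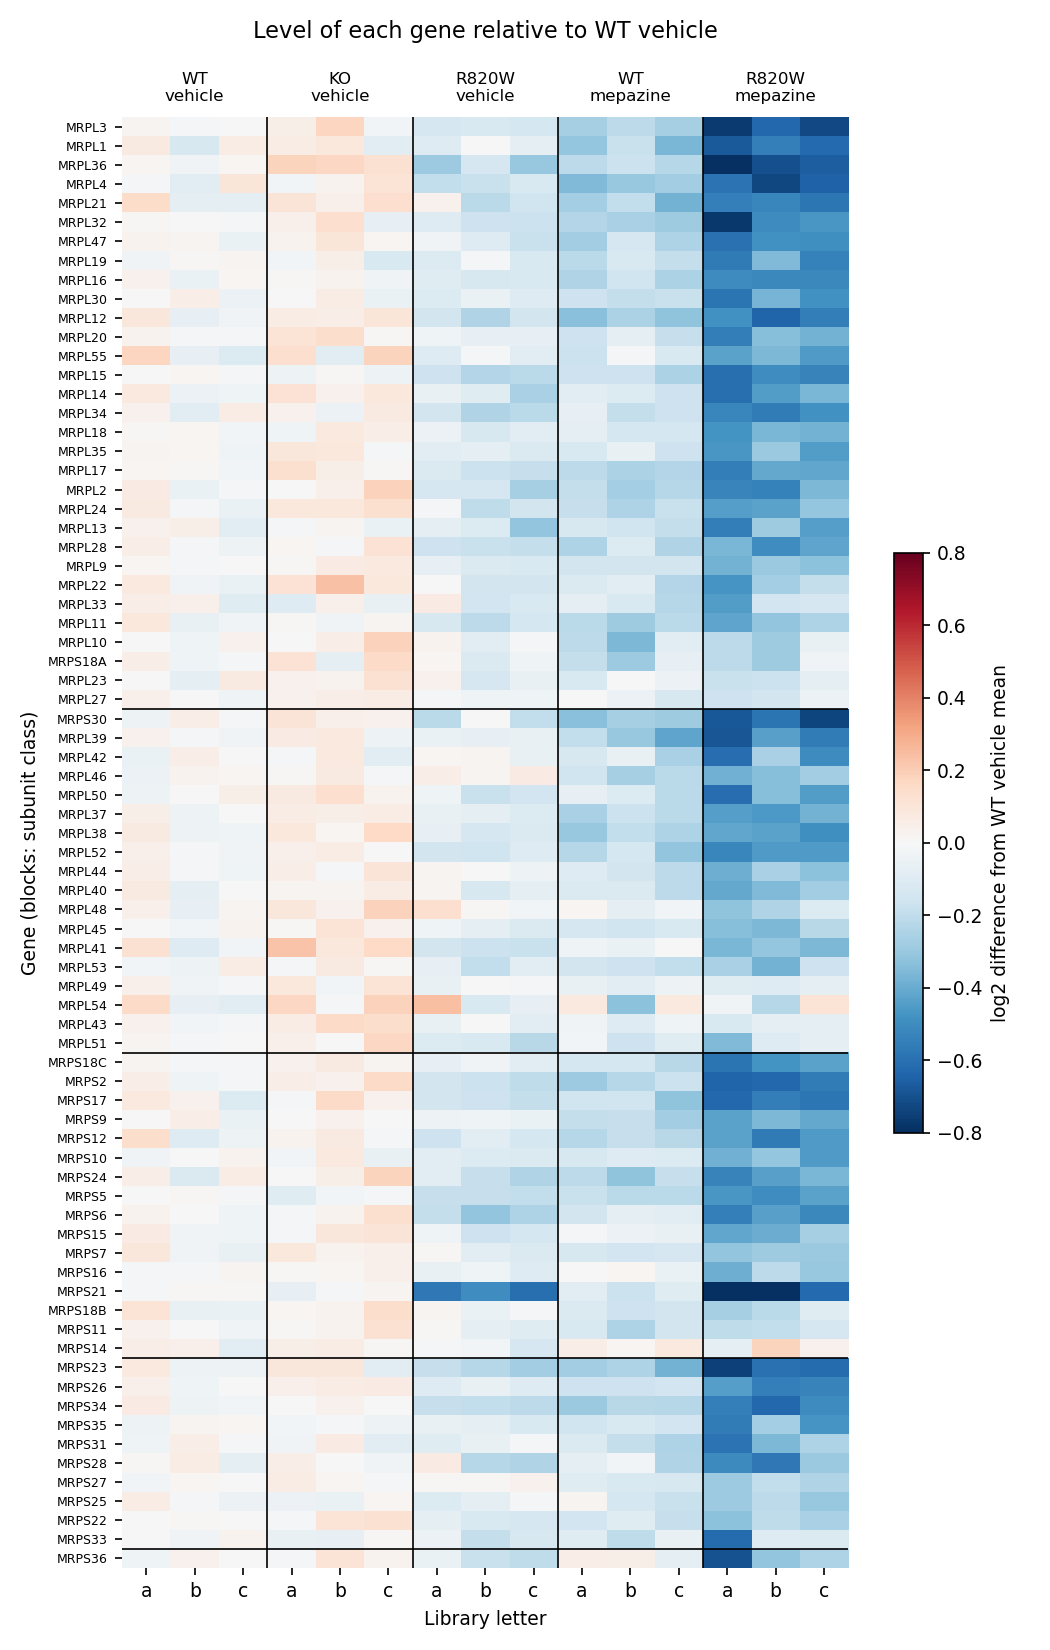
Level of each of the 76 genes (rows, symbols at left) in each library (columns, letters within group) as the log2 difference of CPM plus 0.5 from the WT vehicle mean, with colour saturating at -0.8 and 0.8; blocks from the top hold the large-subunit genes with a bacterial counterpart, the mitochondria-specific large-subunit genes, the small-subunit genes in the same order, and MRPS36. R820W mepazine is the bluest block, MRPS21 stands out in both R820W groups, and MRPS14 does not follow the rest.

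In WT cells given mepazine, most of these genes were lower than with vehicle. With WT mepazine against WT vehicle, 45 of 76 members were called lower and 0 higher by edgeR, against 11.6% lower and 12.4% higher among all genes tested. The median log2 fold change was -0.16, beside 0.02 over all genes. Calls covered 28 of 49 large-subunit and 17 of 26 small-subunit genes. The lowest 6 fold changes lay close together, between -0.31 and -0.29 on the log2 scale.

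MRPL4 was at 126, 118 and 135 CPM with vehicle and 98.8, 102 and 104 CPM with mepazine. The groups did not overlap, and the log2 fold change was -0.31 ± 0.049 (edgeR adjusted p = 2.66e-05). MRPL12 went from 117, 105 and 108 CPM to 87.3, 92.2 and 88.1 CPM, again without overlap (-0.31 ± 0.047, edgeR adjusted p = 2.36e-05). MRPS30, which in spite of its name is a mitochondria-specific protein of the large subunit, went from 54.8 ± 1.80 to 44.5 ± 1.18 CPM (edgeR adjusted p = 0.000338). MRPL39 and MRPS23, both specific to mitochondria, and MRPL1, of the mobile stalk at the exit site, completed the 6, with -0.31, -0.31 and -0.29.

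Other members were not called in WT. MRPS16, of the small subunit, was at 128, 128 and 131 CPM with vehicle and 129, 130.0 and 124 CPM with mepazine, so the groups overlapped (-0.01, interval -0.11 to 0.08). MRPS21 was also not called (-0.12 ± 0.059, edgeR adjusted p = 0.149). Among genes described for their role, MRPL45, which anchors the ribosome at the inner membrane, fell by 0.14 and MRPS12 by 0.22. The call of MRPS12 was lost without WT vehicle a, and those of MRPL36, MRPL45, MRPS18B and MRPS18C were lost in 3, 4, 3 and 2 of the 6 fits that left out a library. The smallest called falls besides MRPL45 were those of MRPS27 (-0.11), MRPS7 (-0.14), MRPS22 (-0.14), MRPS35 (-0.15) and MRPL20 (-0.15), and their calls were lost in 4, 3, 3, 6 and 5 of the 6 fits.

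The R820W cells showed the most members called. With R820W mepazine against R820W vehicle, 63 of 76 members were called lower and 0 higher by edgeR, while 24.8% of all genes tested were called lower and 22.1% higher. The median log2 fold change was -0.31, beside 0.02 over all genes, a median fall of 19.3%. In the large subunit 39 of 49 genes were called, and in the small subunit 23 of 26. By class, calls covered 26 of the 31 large-subunit genes with a bacterial counterpart, 13 of the 18 specific ones, 14 of 16 and 9 of 10 in the small subunit, and MRPS36.

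MRPL3, which reaches towards the peptidyl transferase centre, had the lowest fold change. It was at 276, 279 and 275 CPM in R820W vehicle and at 178, 196 and 184 CPM with mepazine. The groups were far apart, and the log2 fold change was -0.57 ± 0.046 (edgeR adjusted p = 1.39e-10). MRPL1 followed, from 32.3, 34.8 and 32.8 CPM to 21.6, 23.6 and 22.4 CPM (-0.56 ± 0.067, edgeR adjusted p = 1.24e-07). MRPL36 went from 34.1, 38.2 and 33.9 CPM to 21.04, 25.5 and 26.4 CPM, with library a the lowest (-0.54 ± 0.067, edgeR adjusted p = 2.27e-07).

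MRPS30, MRPL39 and MRPL4 made up the rest of the 6 lowest, with -0.54, -0.51 and -0.49 on the log2 scale. All 3 were also among the 6 lowest of the WT response. MRPL12 fell by 0.38 ± 0.048 (edgeR adjusted p = 2.98e-07) and MRPS12 by 0.36 ± 0.063. Of the genes described for their role, MRPL45, MRPL11 and MRPS18B had smaller falls, of 0.23, 0.17 and 0.17. MRPS22, MRPL41, MRPS25 and MRPS21 were the other called members with the smallest falls, of 0.16, 0.18, 0.21 and 0.21. Library R820W mepazine a stood apart for MRPS36, at 19.3, 25.4 and 26.6 CPM in a, b and c, and without it the calls of MRPS36 and MRPS21 were lost. That of MRPS36 was also lost when only the 2 groups compared were fitted. Leaving that library out gave 60 members called lower and 1, MRPS14, called higher.

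These responses to mepazine share no library and can be set side by side. Both genotypes had 43 members called lower, another 20 were called in R820W and not in WT, and 2, MRPL10 and MRPS11, in WT and not in R820W. The remaining 11 were called in neither. Over all 14971 genes, 10.6% were called lower in both genotypes, 14.2% in R820W and not in WT, 0.975% in WT and not in R820W, and 74.2% in neither. Across the 76 members the log2 fold changes correlated with Pearson's r = 0.67 and Spearman's rho = 0.64, while r was 0.42 across all 14971 genes. The points are genes measured in libraries of the same kind and are not independent, so these are descriptions. The point estimate of the response was lower in R820W for 68 of 76 members, beside 55.6% of all genes tested.

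**Figure D3:**
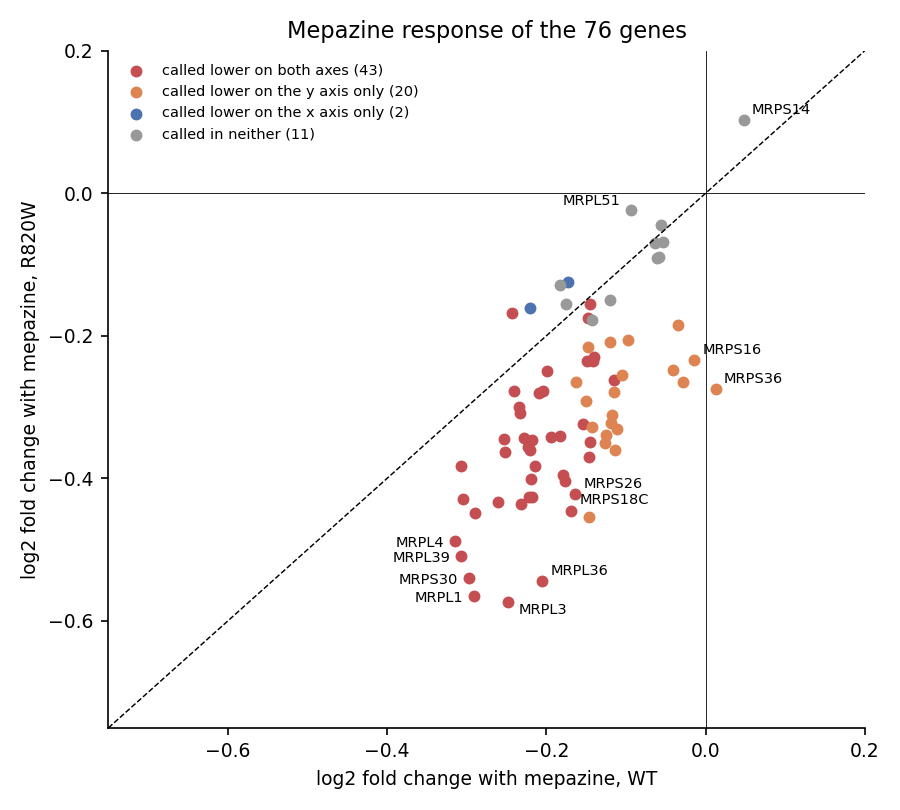
Log2 fold change with mepazine in WT cells (x axis) and in R820W cells (y axis) for the 76 genes (points), coloured by the edgeR call, with the dashed line marking equal responses. Most points lie below the line, MRPL3 and MRPL1 are lowest on the y axis, and MRPS14 lies above 0 on both axes without a call on either.

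Whether the response to mepazine differed between the genotypes was tested directly, as the response in R820W minus that in WT. Of the 76 members, 5 had a more negative response in R820W and 0 a less negative one, by edgeR's test of the difference. Among all genes tested 3.07% were called in the first direction and 0.788% in the second. The median difference over the members was -0.14 on the log2 scale, beside -0.03 over all genes. An unadjusted p under 0.05 from edgeR was found for 34 of 76 members, all of them negative. Over all 14971 genes that threshold gave 2053 negative and 849 positive. The 5 called were MRPL3, MRPS26, MRPL36, MRPS18C and MRPS16. Other settings of the fit on all libraries gave 4 to 17 members, and 10 with no filter on low counts.

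MRPL3 had a mean of 303 ± 4.09 CPM in WT vehicle and 255 ± 5.43 with mepazine, and of 276 ± 2.06 and 186 ± 9.37 CPM in R820W. Its responses differed by -0.33 ± 0.064 (edgeR adjusted p = 0.00651), and under every alternative and every left-out library the adjusted p lay between 0.000102 and 0.0278. MRPS26, a mitochondria-specific protein of the small subunit, was at 77.1, 79.6 and 76.9 CPM in R820W vehicle and 60.8, 56.5 and 56.96 CPM with mepazine, but at 85.3, 80.8 and 82.5 and then 73.9, 73.9 and 74.4 CPM in WT. Vehicle and mepazine values did not overlap in either genotype, and the difference of responses was -0.26 ± 0.060 (edgeR adjusted p = 0.0157; 0.00361 to 0.0629 under the alternatives, the highest without R820W vehicle b).

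MRPL36, MRPS18C and MRPS16 were nearer the threshold. The difference was -0.34 ± 0.092 for MRPL36 (edgeR adjusted p = 0.0373), and its call was lost in 7 of the 12 fits that left out a library, over all alternatives from 0.00618 to 0.146. MRPS18C, one of 3 human counterparts of a single bacterial protein, was at 32.8, 33.6 and 32.5 CPM in R820W vehicle and 22.8, 24.5 and 25.4 CPM in R820W mepazine, and in WT went only from 34.9, 34.2 and 34.1 to 31.2, 31.1 and 29.4 CPM. Its difference was -0.28 ± 0.076 (edgeR adjusted p = 0.0394), lost in 9 of the 12 fits and with DESeq2, with a highest adjusted p of 0.122 and a lowest of 0.0174. For MRPS16 it was -0.22 ± 0.061 (edgeR adjusted p = 0.041), lost in 10 of the 12 fits and with DESeq2 size factors, with a highest adjusted p of 0.13 and a lowest of 0.00481.

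The count of 5 changed with single libraries of all 4 groups. It was 1 without R820W vehicle b, 2 without any 1 of WT vehicle a, b or c, WT mepazine a or b, or R820W mepazine a, and 3 without R820W vehicle a or c. Without R820W mepazine b it was 16. The calls over all genes moved as well. More negative responses in R820W numbered 459 with all libraries, 114 without R820W vehicle b and 1080 without R820W mepazine b.

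The 3 human counterparts of that bacterial protein had unequal responses by point estimate. MRPS18C fell by 0.45 ± 0.054 with mepazine in R820W and MRPS18B by 0.17 ± 0.053. MRPS18A, the large-subunit form, was not called, at 34.0, 31.0 and 32.8 CPM with vehicle and 28.9, 27.5 and 32.9 CPM with mepazine (-0.13, interval -0.29 to 0.03). The differences between these genes were not tested.

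**Figure D4:**
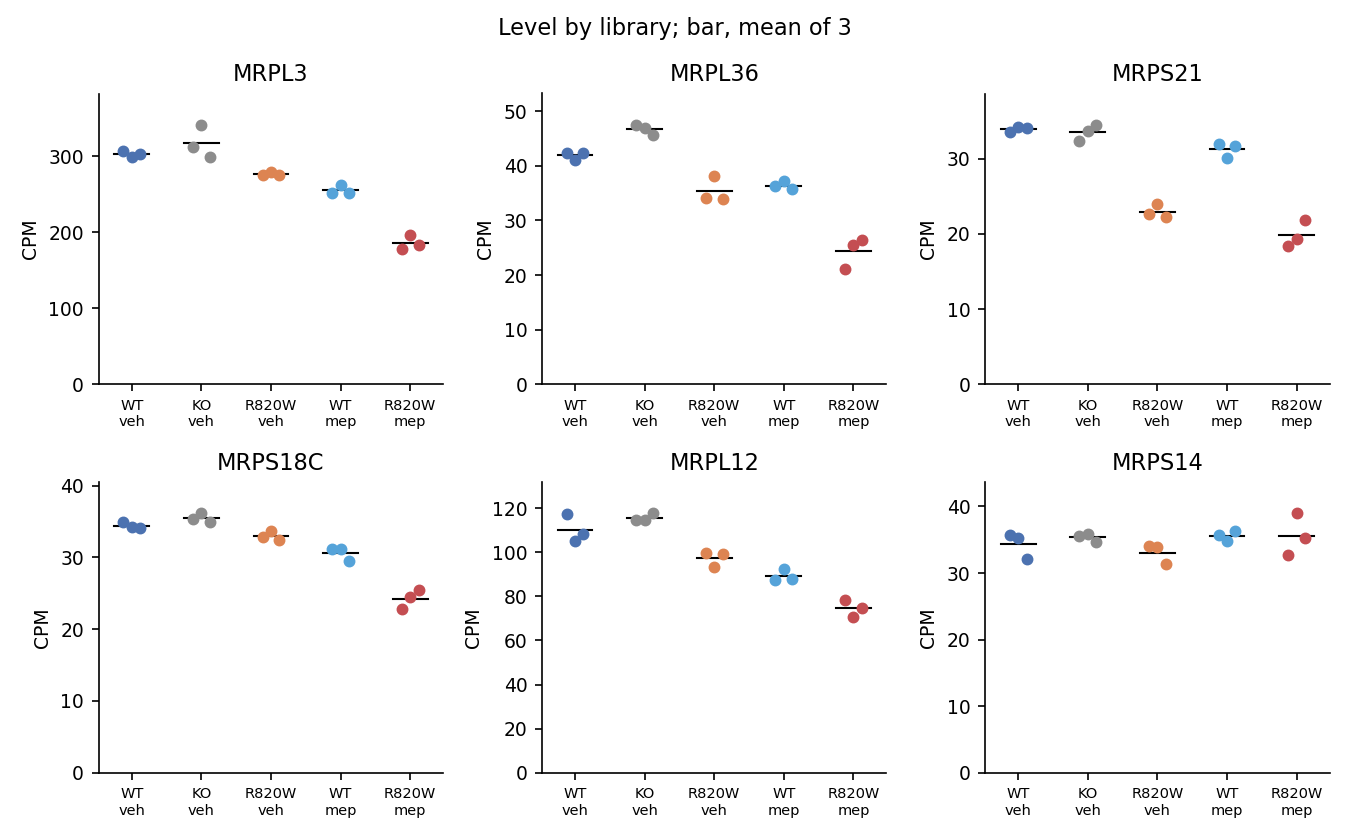
Level in CPM (y axis, from 0, a separate scale for each panel) of 6 genes in each library (points, letters a to c from left to right) of WT vehicle, KO vehicle, R820W vehicle, WT mepazine (mep) and R820W mepazine, with a bar at the mean of 3. MRPL3, MRPL36, MRPS18C and MRPL12 are lowest in R820W mepazine, MRPS21 is low in both R820W groups, and vehicle and mepazine overlap within each genotype for MRPS14.

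With both genotypes under mepazine, 59 of 76 members were lower in R820W than in WT and 0 higher by edgeR, against 25.4% of all genes lower and 19.4% higher. The median log2 fold change was -0.26, beside -0.01 over all genes. Calls covered 36 of 49 large-subunit and 22 of 26 small-subunit genes. MRPS21 again had the lowest value, -0.65 ± 0.062 (edgeR adjusted p = 3.29e-09), at 31.9, 30.02 and 31.7 CPM in WT mepazine and 18.4, 19.3 and 21.9 CPM in R820W mepazine. The mepazine responses of MRPS21 differed between genotypes by -0.09, with an interval of -0.28 to 0.11, and it was not called there.

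MRPL36 had -0.58 ± 0.067 in this comparison (edgeR adjusted p = 8.37e-08) and MRPL3 -0.46 ± 0.046 (edgeR adjusted p = 7.84e-09). MRPS36, MRPS6 and MRPL34 followed with -0.43, -0.40 and -0.39. The smallest called falls were those of MRPS22 (-0.12), MRPS27 (-0.13), MRPS7 (-0.16), MRPL45 (-0.17), MRPS25 (-0.18) and MRPL44 (-0.18). The call of MRPS22 was lost without WT mepazine a or b or R820W mepazine a or c, that of MRPS25 without WT mepazine a, and that of MRPS27 without R820W mepazine a. MRPS18A was not called, with 0.01 with an interval of -0.15 to 0.17.

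Setting the genotype differences side by side, 19 members were called lower in R820W both under vehicle and under mepazine, 40 under mepazine alone and 1, MRPL11, under vehicle alone. The other 16 were called in neither. Over all genes tested the shares were 7.57% in both, 17.9% under mepazine alone, 1.04% under vehicle alone and 73.5% in neither. These comparisons share no library either, and across the 76 members r was 0.66 and rho 0.59, close to the r of 0.63 across all genes. R820W mepazine had the lowest mean of the 5 groups for 72 of the 76 members, and this was not counted over all genes.

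**Figure D5:**
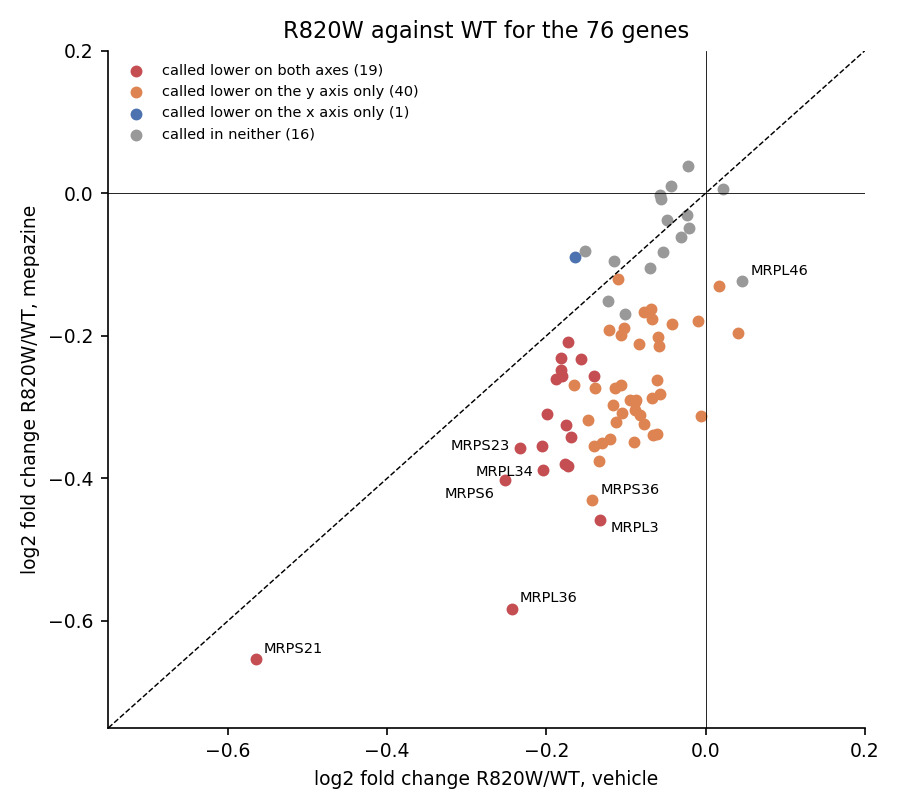
Log2 fold change of R820W against WT under vehicle (x axis) and under mepazine (y axis) for the 76 genes (points), coloured by the edgeR call, with the dashed line marking equal differences. MRPS21 is lowest on both axes and near the line, while MRPL36, MRPL3 and most other genes lie below it.

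A set of 11 members was called in none of the 6 comparisons: MRPL23, MRPL27, MRPL33, MRPL43, MRPL49, MRPL51, MRPL53, MRPL54, MRPS14, MRPS18A and MRPS33. MRPS18A was called lower with mepazine in WT under 4 of the 5 other settings. In R820W mepazine against its vehicle their fold changes ran from -0.18 to 0.10 on the log2 scale. They were less abundant than the other 65 by median, 34.8 against 59.6 CPM, and had a larger median standard error, 0.0609 against 0.0527 in that comparison. The absence of a call does not show that these genes did not change. How many of all genes tested were called in none of the 6 comparisons was not counted. Whether 11 members is few or many therefore cannot be said. MRPS14, a small-subunit protein with a bacterial counterpart, stood at 35.7, 35.3 and 32.2 CPM in WT vehicle, 35.7, 34.7 and 36.3 in WT mepazine, 34.1, 33.9 and 31.3 in R820W vehicle and 32.6, 39.0 and 35.2 in R820W mepazine. Vehicle and mepazine values overlapped within each genotype, and its response in R820W had an interval of -0.03 to 0.24, which lies above the fold change of every one of the 63 members called lower there.

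Between genes, levels were compared per kilobase of the principal GENCODE transcript in WT vehicle. They ran from 5.19 CPM per kb for MRPL42 to 178 CPM per kb for MRPL3, with a median of 39.4, and 54 of 76 genes lay within 2-fold of the median. MRPS24, MRPL15 and MRPL12 came after MRPL3, with 144, 116 and 107 CPM per kb. MRPS24 shares exons with the readthrough gene URGCP-MRPS24, and the level of MRPL42 was divided by a transcript length of 15582 bases. In all, 13 members share exon sequence with another gene on the same strand and 24 with one on the opposite strand, and 33 have named pseudogenes. The values of these genes are uncertain to the extent that reads were shared, since the strand setting of the counting is not given. Among genes described above, MRPS6 overlaps SLC5A3 and AP000317.2 on its own strand, MRPL12 overlaps AC139530.2, MRPS16 overlaps DNAJC9, MRPS17 overlaps AC092647.5, and MRPL20 and MRPL42 each overlap a 7SL pseudogene. On the opposite strand MRPL34 overlaps ABHD8, MRPS12 overlaps SARS2, MRPS18A overlaps RSPH9, MRPS18C overlaps ABRAXAS1, MRPS22 overlaps PRR23A, MRPS25 overlaps NR2C2 and MRPS7 overlaps GGA3 and MIF4GD. MRPL4, MRPL20 and MRPL44 overlap genes there that the annotation lists only by clone name.

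Promoter windows show what the members share in sequence. RefSeq windows on GRCh38.p14, from 250 bases before to 50 after a start site, were matched by symbol for 67 of the 76 genes. Both strands were searched for the core of the NRF1 site (GCGCATGC), an ETS site of the kind bound by GABP (CCGGAAG), the E-box bound by MYC and related factors (CACGTG) and a YY1 site (AAGATGGCG). The ETS letters were in 29 of 67 member genes, 43.3%, beside 12.2% of the 27305 genes with a window. YY1 letters were in 13, 19.4% beside 2.14%. The NRF1 core was in 6, 8.96% beside 3.68%, and the E-box in 9, 13.4% beside 8.77%. The 27305 genes were not limited to the 14971 tested here. These shares therefore do not set the members against other expressed genes.

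The members' responses are given by motif as a description. In R820W mepazine against its vehicle the median log2 fold change was -0.29 for the 29 members with ETS letters and -0.33 for the 38 without, and -0.34 for the 9 with an E-box and -0.32 for the 58 without. For YY1 letters the medians were -0.34 with and -0.30 without, and for the NRF1 core -0.33 and -0.32. A match describes letters only and is not a binding site shown by these data.

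The windows of the 5 genes with a called difference between the mepazine responses, of MRPS21 and of MRPS14 are shown because they are described above. They are written 5′ to 3′ on the strand of the gene, with matches in capitals.
MRPL3 (chr3:131502922-131503221, minus strand): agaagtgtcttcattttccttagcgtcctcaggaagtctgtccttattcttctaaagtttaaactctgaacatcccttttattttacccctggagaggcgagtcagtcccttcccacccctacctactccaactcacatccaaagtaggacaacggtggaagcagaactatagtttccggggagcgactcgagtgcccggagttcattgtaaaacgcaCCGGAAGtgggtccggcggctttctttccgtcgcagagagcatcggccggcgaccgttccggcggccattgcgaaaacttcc
MRPL36 (chr5:1799788-1800087, minus strand): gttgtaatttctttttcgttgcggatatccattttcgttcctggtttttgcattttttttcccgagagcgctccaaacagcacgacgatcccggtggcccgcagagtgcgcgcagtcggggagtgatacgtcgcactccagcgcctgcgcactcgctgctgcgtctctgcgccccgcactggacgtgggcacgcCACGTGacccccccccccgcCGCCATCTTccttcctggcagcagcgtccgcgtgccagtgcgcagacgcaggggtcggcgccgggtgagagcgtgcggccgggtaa
MRPS18C (chr4:83455808-83456107, plus strand): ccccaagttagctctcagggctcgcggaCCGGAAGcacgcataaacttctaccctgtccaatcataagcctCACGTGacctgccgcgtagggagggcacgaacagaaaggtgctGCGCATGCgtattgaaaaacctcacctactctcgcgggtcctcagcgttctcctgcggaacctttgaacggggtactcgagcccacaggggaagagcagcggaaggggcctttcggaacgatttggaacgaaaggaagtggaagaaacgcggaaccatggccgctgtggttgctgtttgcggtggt
MRPS26 (chr20:3045802-3046101, plus strand): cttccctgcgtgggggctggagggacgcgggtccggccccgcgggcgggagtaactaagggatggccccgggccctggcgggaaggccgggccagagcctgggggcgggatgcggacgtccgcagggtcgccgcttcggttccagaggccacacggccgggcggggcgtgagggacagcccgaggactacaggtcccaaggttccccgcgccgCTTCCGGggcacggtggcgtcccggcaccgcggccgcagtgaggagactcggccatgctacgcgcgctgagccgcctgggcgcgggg
MRPS16 (chr10:73252595-73252894, minus strand): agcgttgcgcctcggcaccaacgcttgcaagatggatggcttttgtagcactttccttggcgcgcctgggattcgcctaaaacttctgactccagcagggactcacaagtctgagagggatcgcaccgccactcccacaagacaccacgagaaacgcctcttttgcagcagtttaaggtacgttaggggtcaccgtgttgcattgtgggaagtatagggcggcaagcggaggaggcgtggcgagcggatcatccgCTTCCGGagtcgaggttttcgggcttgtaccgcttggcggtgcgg
MRPS21 (chr1:150293611-150293910, plus strand): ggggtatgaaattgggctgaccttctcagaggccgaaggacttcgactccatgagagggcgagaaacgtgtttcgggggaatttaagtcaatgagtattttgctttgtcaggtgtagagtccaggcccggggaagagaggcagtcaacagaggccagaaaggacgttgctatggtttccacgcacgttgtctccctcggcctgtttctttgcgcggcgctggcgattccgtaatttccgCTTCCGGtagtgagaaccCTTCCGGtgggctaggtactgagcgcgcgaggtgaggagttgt
MRPS14 (chr1:175023376-175023675, minus strand): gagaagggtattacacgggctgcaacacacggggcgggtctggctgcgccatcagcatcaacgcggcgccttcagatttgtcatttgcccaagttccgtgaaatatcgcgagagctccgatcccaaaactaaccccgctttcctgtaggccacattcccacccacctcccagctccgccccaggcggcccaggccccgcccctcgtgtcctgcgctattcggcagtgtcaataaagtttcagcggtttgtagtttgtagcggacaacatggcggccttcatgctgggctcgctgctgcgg
The window of MRPL3 holds the ETS letters 32 bases before the start, and that of MRPS26 holds them 37 bases before it on the opposite strand. MRPS21 has them at 2 places. MRPL36 holds the E-box letters and, on the opposite strand, the YY1 letters. MRPS18C holds the letters of 3 motifs, the NRF1 core, the E-box and ETS. The window of MRPS14 has none of the 4, which says only that these letters are not in it.

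Genes that act with the mitoribosome were read from lists of names. Their counts stand beside the shares of all genes called lower, which were 8.61% for R820W against WT under vehicle, 11.6% with mepazine in WT, 24.8% with mepazine in R820W and 25.4% for R820W against WT under mepazine. The 7 mitoribosomal subunits under other symbols, which include ICT1, the older name of MRPL58, and DAP3, were called lower in 0 cases for R820W against WT under vehicle, 4 with mepazine in WT, 7 with mepazine in R820W and 7 in R820W against WT under mepazine. ICT1, a peptidyl-tRNA hydrolase built into the large subunit, went from 35.4 ± 2.41 to 25.7 ± 1.02 CPM with mepazine in R820W (-0.47 ± 0.061, edgeR adjusted p = 5.92e-07). GADD45GIP1, another large-subunit protein, fell by 0.42 and DAP3, a small-subunit GTPase, by 0.24.

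Of 16 tested mitochondrial translation factors, 3 were lower in R820W under vehicle, 6 with mepazine in WT, 12 with mepazine in R820W and 10 in R820W against WT under mepazine, beside those same shares of all genes. TUFM, the mitochondrial elongation factor Tu, was at 437, 408 and 405 CPM in WT vehicle and 337, 351 and 359 CPM in WT mepazine (-0.26 ± 0.041, edgeR adjusted p = 3.65e-05), and fell by 0.34 in R820W. GFM1, an elongation factor G, fell by 0.23 in WT and 0.43 in R820W. SLIRP, which protects mitochondrial mRNAs, was the only factor of the list with a called difference between the responses (-0.28 ± 0.073, edgeR adjusted p = 0.0294).

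Mitoribosome assembly genes followed with 3, 9, 19 and 16 of 25 called lower in the same 4 comparisons, where all genes had 8.61%, 11.6%, 24.8% and 25.4%. RBFA, a maturation factor of the small subunit, went from 42.4 ± 1.37 CPM in WT vehicle to 34.7 ± 0.497 CPM in R820W vehicle (-0.29 ± 0.049, edgeR adjusted p = 7.77e-05). TFB1M, which methylates the small mitochondrial rRNA, had -0.30 ± 0.058 there. RNMTL1, a methyltransferase of the large mitochondrial rRNA, fell by 0.38 with mepazine in WT and 0.52 in R820W. Its relative MRM1 had a called difference between the responses, -0.39 ± 0.099 (edgeR adjusted p = 0.0275). METTL17 went the other way, higher by 0.12 with mepazine in R820W (edgeR adjusted p = 0.046), and SPG7 was higher by 0.20 in R820W under mepazine.

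Mitochondrial transcription genes were called lower in 0, 4, 6 and 4 of 7 cases, beside 8.61%, 11.6%, 24.8% and 25.4% of all genes. TFAM, which packages mitochondrial DNA, went from 157 ± 7.89 to 123 ± 7.35 CPM with mepazine in R820W (-0.35 ± 0.051, edgeR adjusted p = 3.6e-06), and TFB2M, an initiation factor, fell by 0.52. None of the genes in these 4 lists was called in the libraries labelled KO by edgeR, beside the 0.0868% and 0.287% of all genes called. The transcript listed as MTND5, a mitochondrially encoded subunit of complex I, was called in none of the 6 comparisons, at 1940.4, 2559 and 2941 CPM in R820W mepazine a, b and c beside 2109 to 2169.9 CPM in WT vehicle. Those 3 R820W mepazine libraries lie on both sides of the WT vehicle values. In WT mepazine MTND5 was at 2420, 2244 and 2358 CPM, above every WT vehicle value. In R820W vehicle it was at 2118, 2157 and 2263.5 CPM.

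The list of regulators held MYC, NRF1, YY1, the GABP subunits and PGC-1 family coactivators, with 8 of 9 tested (PPARGC1A was not). In R820W against WT under vehicle 2 were called lower, with mepazine 4 in WT and 7 in R820W, and 8 in R820W against WT under mepazine, where 8.61%, 11.6%, 24.8% and 25.4% of all genes were called lower. MYC stood at 201, 193 and 197 CPM in WT vehicle, 194, 199.7 and 193 in KO, 154, 159 and 164 in R820W vehicle, 153, 161 and 152 in WT mepazine and 98.6, 98.7 and 98.9 in R820W mepazine. The libraries labelled KO overlapped WT vehicle, R820W vehicle and WT mepazine overlapped each other, and R820W mepazine lay below all the rest. MYC fell by 0.31 ± 0.039 in R820W under vehicle, by 0.34 ± 0.039 with mepazine in WT and by 0.69 ± 0.040 with mepazine in R820W (edgeR adjusted p = 7.61e-07, 2.32e-07 and 6.34e-13). Its responses differed by -0.34 ± 0.056 (edgeR adjusted p = 0.00125).

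PPRC1, a coactivator of the PGC-1 family, fell by 0.18 in R820W under vehicle, 0.23 with mepazine in WT and 0.39 with mepazine in R820W. NRF1 fell by 0.21 and 0.36 with mepazine in the 2 genotypes, and was not called in R820W under vehicle (-0.09, edgeR adjusted p = 0.311). GABPA, the DNA-binding subunit of GABP, rose by 0.17 ± 0.055 with mepazine in WT (edgeR adjusted p = 0.025), while its partner GABPB1 fell by 0.18. PPARGC1B had a called difference between the responses, -0.41 ± 0.082 (edgeR adjusted p = 0.00722). The part of these regulators in the levels of the members was not tested.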

How the data were processed

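The authors deposited unnormalised counts, with a row for each gene symbol and a column for each library. Total RNA went into a NEBNext Ultra II Directional kit, per the labels' protocols. Tools named in the submitters' processing notes are DESeq2, FastQC and MACS2, with the build hg19 and no roles or versions. Which aligner, counter, annotation and strand setting were used is not given. Reads of overlapping or near-identical genes may thus be shared between symbols.

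In R 4.3.3, genes were filtered with edgeR 4.0.16 (filterByExpr, minimum count 10), scaled by TMM, and all 15 libraries entered 1 robust quasi-likelihood fit with group as its term (limma 3.58.1 was loaded by edgeR). Tests were two-sided in 6 contrasts, with Benjamini-Hochberg adjustment over 14971 genes and a threshold of 0.05. Intervals of 95% used the fold change, its SE and 10 residual degrees of freedom. The p-values measure the spread between libraries, which may be technical, since nothing ties a letter to a culture. No 2 libraries of a group agreed within sampling noise (chi-square per gene of 3.31 to 14.8, for genes whose summed count was 20 or more), so all were kept. Floors of 3 counts cover counting error only.

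Genes were named by a rule: for each contrast, the 6 members with the lowest and the 6 with the highest fold change among called members without overlap, the members called in KO or in the interaction, and 12 genes chosen by role, of which MRPL58 appears as ICT1. For the other lists it names the 3 genes with the smallest adjusted p in each contrast, of which not all are printed; others were named after their values were seen. Members, lists and alternatives were chosen with earlier results of these data known. Alternatives were DESeq2 1.42.0, its size factors in edgeR, no filter, only the groups compared, a replicate block, and leaving out each library. Simulated counts with known changes were used to test the edgeR step. Promoter windows were RefSeq's on GRCh38.p14 and gene positions GENCODE's on GRCh38; no coordinate was carried over from hg19.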

Additional observations from a re-analysis of the deposited data

Results flagged for a closer look

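The mepazine responses of 9 genes read here differed between R820W and WT by edgeR's test of the difference itself, with Benjamini-Hochberg adjustment over all 14971 genes. They were 5 of 76 members, 2 of 8 regulators, 1 of 25 assembly genes and 1 of 16 translation factors. Over all genes tested, 3.07% were called lower and 0.788% higher in this comparison. Among the mitochondrial ribosomal protein genes the response in R820W minus that in WT was -0.34 on the log2 scale for MRPL36, -0.33 for MRPL3, -0.28 for MRPS18C, -0.26 for MRPS26 and -0.22 for MRPS16. Among the genes that act with them it was -0.41 for PPARGC1B, -0.39 for MRM1, -0.34 for MYC and -0.28 for SLIRP. Of the 5 members, only MRPL3 kept its call under every alternative. The calls of MRPL36, MRPS18C and MRPS16 were lost in most fits that left out a library. Those of PPARGC1B, MRM1, MYC and SLIRP were not checked under the alternatives. By point estimate, R820W had the lower response in all 9; that of PPARGC1B in WT was above 0 (0.10, not called). The summed fibroblast, endothelial and melanocyte markers were also highest in R820W mepazine, and their part in these differences was not tested.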

How the results depend on the processing

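No member count or member named by the rule changed direction with a call under any alternative. Genes of the other lists, such as MYC, TUFM and RBFA, were not followed under the alternatives. Across the 5 settings other than leaving out a library, the members called lower numbered 21 to 24 in R820W against WT under vehicle (20 as reported), 46 to 56 with mepazine in WT (45), 62 to 66 with mepazine in R820W (63), 57 to 61 in R820W against WT under mepazine (59) and 0 in KO. All genes called lower numbered, in the same order, 1264 to 1646 (1289), 1746 to 2282 (1733), 3501 to 3989 (3710), 3101 to 4090 (3808) and 12 to 33 (13). Member counts moved most for the difference between the mepazine responses, with 4 to 17 members called beside 5. All genes called lower there numbered 376 to 1070 beside 459. The member count was 10 with no filter on low counts and 17 with the replicate block, and the cause was not tested.

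Leaving out each library gave 9 to 17 members called lower for R820W against WT under vehicle, 30 to 45 for mepazine in WT, 60 to 67 for mepazine in R820W, 54 to 60 for R820W against WT under mepazine and 1 to 16 for the difference between responses. All genes called lower in those fits numbered, in the same order, 877 to 1086, 1191 to 1480, 3312 to 3794, 3298 to 3960 and 114 to 1080. The members called higher with mepazine in R820W went from 0 to 1, MRPS14, without R820W mepazine a. Median log2 fold changes kept their sign.

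Letters were not used to pair the libraries, since over all genes tested 5 of 30 same-letter pairs correlated above 0.1 (median 0.0513). The same letter correlated best in 23 of the 30, a hint from the data, not the design, that a letter may mark something shared. Over the members alone the same-letter correlations were mostly positive and spread more widely. They ran from -0.33 (WT mepazine and R820W mepazine, a) to 0.52 (KO and WT mepazine, c). The replicate block raised the calls over all genes for the difference between responses from 118 higher and 459 lower to 331 and 1070. The lowest count of any member was 338, and the 11 members called nowhere had a lower median level and a larger median standard error than the rest.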
